A study of Mus musculus with 2 samples.

Results

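Replication-independent histone variants are histones made from genes outside the replication-dependent clusters, and 9 such genes were taken by symbol from the gene tables: H2afz, H2afv, H2afx, H2afy and H2afj of the H2A class, H3f3a, H3f3b and Cenpa of the H3 class, and the linker histone gene H1f0. All 9 had a row among the 43346 annotated genes. The cells were G1E, an immortalised mouse line of Gata1- erythroid progenitors from a male, with the stage given as postnatal and the age as 0 day. As background, the line derives from Gata1-deficient embryonic stem cells; it is 1 line, with no GATA1-restored or wild-type group here. There was 1 group of 2 poly(A) RNA libraries, replicate 1 and replicate 2, that cite the same biosample. The labels number them as biological replicates, each with technical replicate number 1. The labels do not say whether the cultures were separate, and the difference between the libraries can be technical. No condition was compared.

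Most histone mRNA is made in S phase from clustered genes whose transcripts end in a stem-loop in place of a poly(A) tail. The variant genes instead usually have introns and polyadenylated transcripts, and their proteins are placed in chromatin by dedicated chaperones through the cell cycle. H2A.Z marks promoters and enhancers, H2A.X is phosphorylated around DNA breaks, macroH2A carries a large extra domain and is linked to silenced chromatin, H3.3 replaces H3 in active genes and at telomeres, and CENP-A defines the centromere. H1.0, the product of H1f0, is known for accumulating in cells that stop dividing, and maturing red cells are among those in which linker histones change.

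The cells showed the markers of their label. All 8 erythroid progenitor markers were above 1 TPM in both libraries, at 87.05 to 764.21 TPM in replicate 1 and 96.74 to 363.23 TPM in replicate 2. The 4 late red cell markers were low, summing to 9.51 and 28.73 TPM. Of 15 markers of myeloid, lymphoid, endothelial, fibroblast and pluripotent cells, 1 reached 1 TPM in both libraries, Lyz2, at 3.20 and 15.65 TPM. Gata1 itself was read at 88.15 and 61.44 TPM; which part of the gene is missing is not given in the sources used here, so this level checks nothing about the label. The libraries held 31645051 and 56983558 expected counts, from reads whose lengths are implied as 36 and 55 nt. TPM is a count divided by the effective transcript length, with the sum over all entries made equal between libraries.

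The paralogs H3f3a and H3f3b encode the same H3.3 protein of 136 residues, yet 95 of their 408 coding nucleotides differ, 81 of them at the third codon position. The longest run they share is 23 nt, shorter than either read length, so no read within the coding sequence can come equally from both. The first 90 nt of each coding sequence, from GENCODE M21 on GRCm38, are shown with the 20 differing nucleotides in capitals; none of them changes a residue.
H3f3a: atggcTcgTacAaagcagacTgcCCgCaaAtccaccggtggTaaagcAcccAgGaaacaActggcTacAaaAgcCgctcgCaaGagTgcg
H3f3b: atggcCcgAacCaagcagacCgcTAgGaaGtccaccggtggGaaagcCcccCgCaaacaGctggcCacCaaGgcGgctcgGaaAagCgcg

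H2afz and H2afv encode the H2A.Z proteins, which differed at 3 of 128 residues, while 80 of 384 coding nucleotides differed, 69 of them at the third codon position. Their longest shared run was 14 nt. In the first 90 nt of coding sequence, capitals mark the 19 differing nucleotides, which change 1 residue.
H2afz: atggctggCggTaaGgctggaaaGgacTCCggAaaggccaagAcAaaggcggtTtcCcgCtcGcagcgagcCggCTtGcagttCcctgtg
H2afv: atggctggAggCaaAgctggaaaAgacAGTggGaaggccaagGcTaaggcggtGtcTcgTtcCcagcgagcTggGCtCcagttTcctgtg

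The other members were further apart. H2afx and H2afj had 119 of 128 aligned residues in common, H2afz and H2afx 79 of 124, H2afz and H2afy 64 of 122, and H3f3b and Cenpa 59 of 122. H2afx was also the one member with the histone stem-loop, a fixed hairpin motif bound by SLBP. The motif was found in 60 of 21373 protein-coding genes (0.281%), each searched on the transcript strand of its annotated coding transcripts. The 21373 genes include 64 replication-dependent histone genes, of which 42 held the motif (65.6%). In H2afx-201 the motif lies in the 3′ UTR, 46 nt after the stop codon and 822 nt before the transcript end. The 30 nt shown are chr9:44335233-44335262 on the plus strand of GRCm38, with the 16 motif nucleotides in capitals.
H2afx stem-loop: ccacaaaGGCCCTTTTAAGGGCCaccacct

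The same transcript holds ATTAAA, a poly(A) signal hexamer, 35 nt from its end. AATAAA or ATTAAA in the last 50 nt was found in 75.7% of protein-coding genes and in 26.6% of replication-dependent histone genes, on the transcript strand. H2A.X is known as a gene with both a short stem-loop RNA and a long polyadenylated RNA; poly(A) selection would take the long form.

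H2A.Z RNA led the set by deposited TPM. H2afz (chr3:137864487-137866922, plus strand) was at 1973 and 3421 TPM in replicates 1 and 2, a mean of 2697 ± 1024 TPM (SD, n = 2). H2afv (chr11:6427229-6444443, minus strand), its paralog, was at 167.9 and 105.1 TPM, or 136 ± 44.4 TPM (SD, n = 2). H2afz was thus far above H2afv in both libraries, by 4.28 ± 1.04 on the log2(TPM + 1) scale (SD, n = 2).

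The H3.3 genes came next by deposited TPM, an order that depends on the transcript length used, as given further on. H3f3a (chr1:180800832-180813943, minus strand) was at 1187 and 1053 TPM, with a mean of 1120 ± 94.5 TPM (SD, n = 2). H3f3b (chr11:116021912-116027962, minus strand) was at 537.6 and 854.4 TPM, with a mean of 696 ± 224 TPM (SD, n = 2). H3f3a was the higher in both libraries, but by 1.14 in replicate 1 and 0.30 in replicate 2 on the log2 scale. Cenpa (chr5:30666777-30674830, plus strand), the centromeric H3, was at 111.7 and 143.2 TPM, or 127 ± 22.3 TPM (SD, n = 2).

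The other H2A variants were lower. H2afy (chr13:56073619-56136361, minus strand), which encodes macroH2A1, was at 407.5 and 261.3 TPM. H2afx (chr9:44334694-44336077, plus strand) was at 283.9 and 144.3 TPM, both libraries above the H2afj values. H2afj (chr6:136808244-136810074, plus strand), a close relative of the clustered H2A genes, was at 58.6 and 103.5 TPM. Replicate 1 was the higher library for H2afy and H2afx, and replicate 2 for H2afj.

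H1f0 (chr15:79028450-79030504, plus strand) was at the limit of detection. It had 2 counts in replicate 1 and 5 in replicate 2, or 0.04 and 0.05 TPM. The 95% Poisson intervals, which cover counting error only, ran from 0.242 to 7.22 counts and from 1.62 to 11.7 counts. None of the 36-mers of H1f0 occurred in another gene. The other 8 members reached 1 TPM in each library, as did 42.5% of 21474 protein-coding genes, and their means exceeded those of 92.2% to 99.8% of protein-coding genes.

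**Figure D1:**
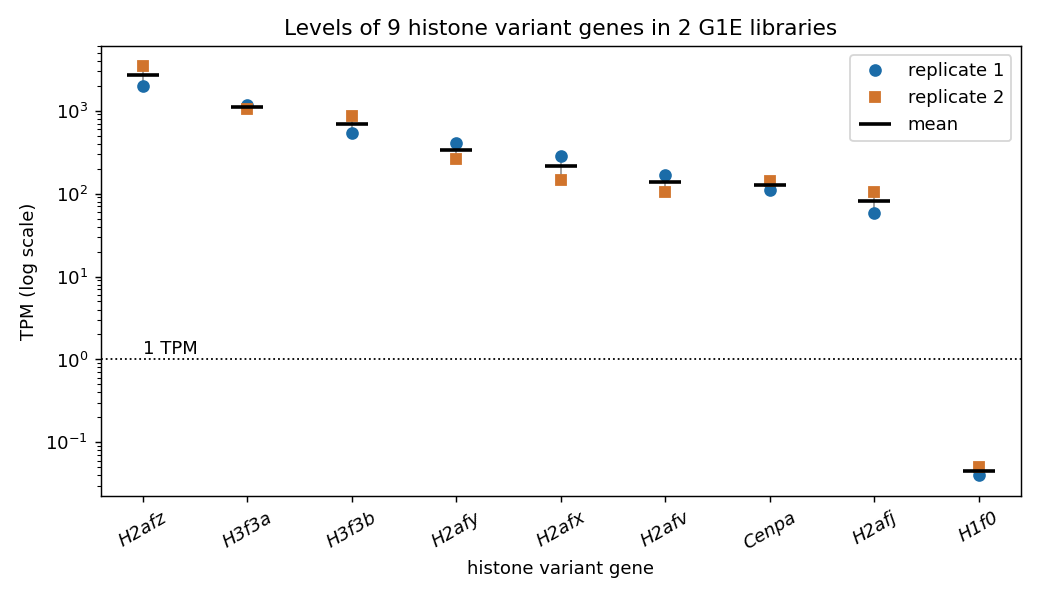
Level in TPM, on a log axis, of each of the 9 variant genes in replicate 1 (circles) and replicate 2 (squares), with the mean as a bar. H2afz is highest in both libraries, the other 7 expressed genes lie between 58.6 and 1187 TPM, and H1f0 lies at 0.04 and 0.05 TPM.

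Ratios between members were set beside a 95% bound of 1.23 on the log2 scale, the normal bound for a mean of 2 libraries with the SD of 0.63 pooled over the 10469 genes that reached 1 TPM in each. With 2 libraries an exact test per pair cannot reach 0.05. By mean level the order was H2afz, H3f3a, H3f3b, H2afy, H2afx, H2afv, Cenpa, H2afj and H1f0. None of the 7 neighbouring pairs that leave out H1f0 exceeded the bound. With the SD taken from the median absolute deviation the bound was 0.98, chosen after seeing the data, and H2afz over H3f3a and H3f3b over H2afy (1.05 ± 0.92; SD, n = 2) passed it. Against 1.23, H2afz over H3f3a came closest, at 1.22 ± 0.68 (SD, n = 2). H2afv and Cenpa were the 1 pair of 36 whose order differed between the libraries, with H2afv higher by 0.58 in replicate 1 and lower in replicate 2, at -0.44. Of the 28 pairs that leave out H1f0, 19 exceeded the bound.

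Of the paralog pairs, H3f3a over H3f3b was 0.72 ± 0.59 and lay within the bound (SD, n = 2). H2afx over H2afj was 1.37 ± 1.26 and passed it, resting on replicate 1, since replicate 2 alone gave 0.47 (SD, n = 2). H2afz over H2afy was 2.99 ± 1.01, and H3f3b over Cenpa was 2.41 ± 0.22 (SD, n = 2 for both); both exceeded the bound.

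The H2afz level depends on a second gene. Gm8203 (chr6:116173737-116174123, plus strand) is annotated as a processed pseudogene, and all 352 of its 36-mers occur in H2afz transcripts. The deposited tables give it 6251 and 16302 expected counts, 36.6% and 26.7% of the H2afz counts, and 760.3 and 1080 TPM. The reads of such a copy cannot be told from those of H2afz, so the division between them is uncertain. With the copy added, H2afz came to 2734 and 4500.6 TPM, and H2afz over H3f3a came to 1.64 ± 0.63 (SD, n = 2), beyond the bound.

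The near-identical H3f3a copies took few reads. H3f3c, Gm12657 and H3f3a-ps2, processed pseudogenes with 76.3%, 67.0% and 63.8% of their 36-mers in H3f3a, had 7.82 counts together in replicate 1, all from H3f3a-ps2, and 89.2 in replicate 2. Sequence was shared with other genes, on either strand, for 32.2% of the 36-mers of H2afz, 28.3% of H3f3a, 8.15% of H2afx and 7.66% of H3f3b. H3f3a shared 609 36-mers with Gm17275 and 125 with H3f3aos, genes on the opposite strand at its own locus. The H2afx share lay in 110 of 1349 36-mers found mostly in clustered H2A genes. H2afj shared 2.00%, H2afv and H2afy under 1%, and Cenpa none.

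Each gene's TPM was divided unevenly over its annotated transcripts. The 9 genes had 38 annotated transcripts, with 1 each for H2afx, H2afj and H1f0. Of the 6 other genes, 4 had the same leading transcript in both libraries. H3f3b and Cenpa were led in both by a transcript that is not annotated as protein-coding. H3f3b-204, a processed transcript, held 86.71% and 82.94% of H3f3b. The coding H3f3b-201 held 4.73% and 13.88%. Of the gene's expected counts, which are not divided by length, H3f3b-204 had 82.3% and 69.9% and H3f3b-201 10.5% and 27.7%. Most of H3f3b-204 is not its own: 84.0% of its 36-mers occur in coding transcripts of the gene. It has 134 36-mers of its own, while H3f3b-201 has 0, all of them being shared with other transcripts of the gene.

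Cenpa-202, annotated as a target of nonsense-mediated decay, held 53.31% and 35.46% of Cenpa, and Cenpa-204, of the same type, 6.11% and 28.69%. The coding Cenpa-205 held 12.56% and 14.56%. Coding transcripts of Cenpa together made 19.3% ± 0.594 (SD, n = 2). As with H3f3b, 86.2% of the 36-mers of Cenpa-202 and 80.3% of those of Cenpa-204 are in coding transcripts.

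The leading transcript differed between the libraries for H2afz and H3f3a. H2afz-205, a processed transcript of 361 nt, held 75.05% in replicate 1 and 43.33% in replicate 2. The coding H2afz-206, of 437 nt, held 19.66% and 48.27%. Its annotated coding sequence is shorter than the 384 nt of H2afz-201, which held 1.95% and 4.33%. The TPM of H2afz-205 itself was 1481 and 1482, while H2afz-206 went from 388 to 1651 TPM. For H3f3a, H3f3a-204 held 55.64% and 37.55%, H3f3a-207 held 34.47% and 1.03%, and H3f3a-201 held 4.47% and 59.70%. All 3 are annotated as coding, and coding transcripts made 98.4% and 99.1% of H3f3a. Of the 3, H3f3a-207 has the longest coding sequence, 408 nt, and the other 2 have shorter ones. The coding share is therefore not a share of RNA with the full H3.3 sequence. Read length differed between the libraries along with these shares; its part was not tested.

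H2afv was led by H2afv-201, a short coding transcript of 519 nt, at 79.05% and 67.20%. The transcript with the full H2A.Z coding sequence, H2afv-202, held 20.95% and 32.80%. By expected counts, which are not divided by length, H2afv-202 had 46.7% and 62.4% of the gene.

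H2afy makes 2 macroH2A1 proteins from mutually exclusive exons, of which the macroH2A1.1 form can bind ADP-ribose and the macroH2A1.2 form cannot. H2afy-201, with 372 codons, uses an exon of 100 nt at chr13:56089758-56089857, and H2afy-202, with 369 codons, uses one of 91 nt at chr13:56088252-56088342, both on the minus strand of GRCm38. The exons are shown because they are where reads can tell the proteins apart; neither has capitals, as they were not aligned.
H2afy-201 exon: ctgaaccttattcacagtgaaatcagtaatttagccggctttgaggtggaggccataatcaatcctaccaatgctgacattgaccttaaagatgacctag
H2afy-202 exon: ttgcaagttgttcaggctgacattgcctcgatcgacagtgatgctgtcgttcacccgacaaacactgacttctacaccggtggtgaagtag

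RNA of the macroH2A1.2 form prevailed. H2afy-201 was at 280.3 and 122.2 TPM and H2afy-202 at 4.87 and 6.75 TPM. H2afy-201 thus made 98.3% of the TPM of this pair in replicate 1 and 94.8% in replicate 2, or 96.5% ± 2.49 (SD, n = 2). H2afy-204, a processed transcript, held 21.68% and 39.90% of the gene's TPM, and 86.7% of its 36-mers occur in the coding transcripts.

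**Figure D2:**
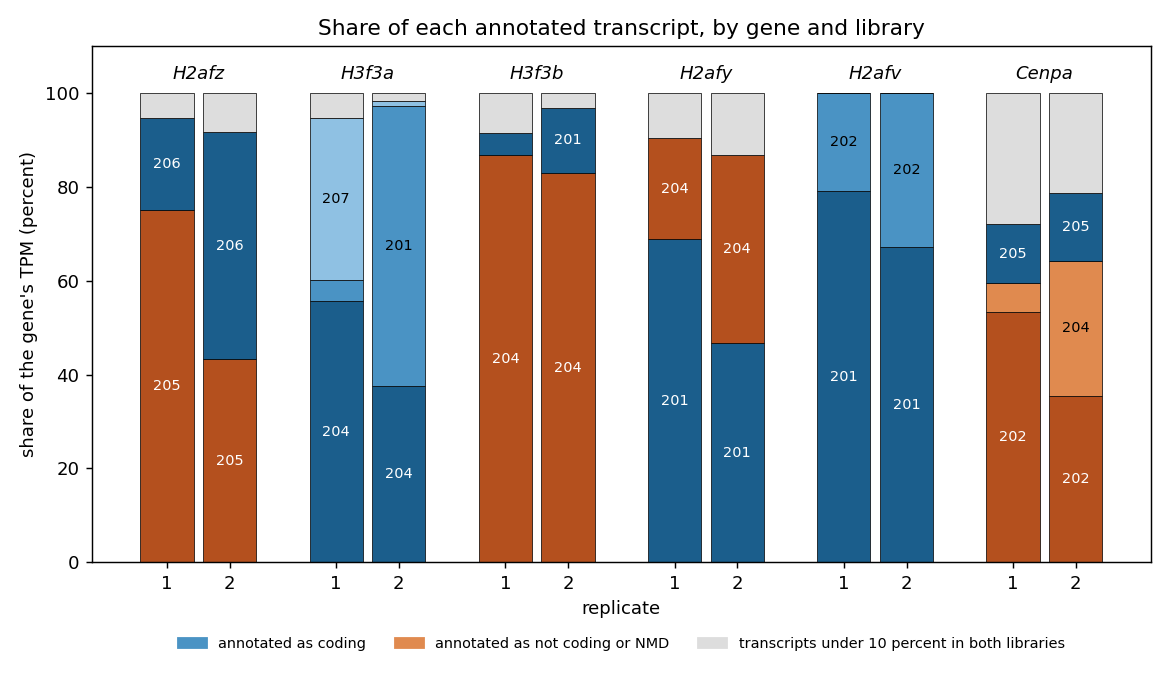
Share of each gene's TPM, in percent, held by its annotated transcripts in replicates 1 and 2, for the 6 genes with more than 1 transcript. Blue segments are annotated as coding, orange ones as not coding or as targets of nonsense-mediated decay, numbers are the transcript suffixes, and grey holds transcripts under 10% in both libraries. H2afz-205 falls from 75.05% to 43.33% between the bars of H2afz, and H3f3a-201 goes from 4.47% to 59.70%.

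These shares enter the gene levels, because the deposited TPM divides by a length averaged over the transcripts assigned. The effective length used for H2afz was 370 and 394 nt, against 1034 and 1015 nt for the full-length coding H2afz-201. An alternative level, added after the data were seen, divided each member's counts by the effective length of 1 fixed coding transcript. On it, H2afz was at 706.8 and 1326 and H3f3a at 948.0 and 1069, on the TPM scale of each library. H3f3a was then above H2afz in replicate 1 and below it in replicate 2. The mean difference of H2afz over H3f3a was -0.056 ± 0.52 on the log2 scale (SD, n = 2). The Gm8203 counts, 6251 and 16302, were 36.6% and 26.7% of the H2afz counts. They are left out of this H2afz level and would raise it. With all of them added, H3f3a would no longer be above H2afz in replicate 1. For H3f3a the fixed transcript was H3f3a-207, which held 34.47% and 1.03% of the gene. The mean difference with the copy added, and the order with another H3f3a transcript, were not computed.

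H3f3b on the same scale was at 242.6 and 428.6. H3f3a over H3f3b was then 1.64 ± 0.46 (SD, n = 2) and passed the bound. The fixed transcripts of this pair differ in length, 724 nt for H3f3a-207 and 1993 nt for H3f3b-201. They held 34.47% and 1.03% of H3f3a, and 4.73% and 13.88% of H3f3b. The pair with other fixed transcripts was not computed. H2afv came to 75.4 and 55.3, and stood below Cenpa in both libraries, by 0.64 ± 0.55 on average (SD, n = 2). H2afx and H2afj, with 1 transcript each, did not move. In replicate 1 H3f3b then ranked below H2afy (333.5) and H2afx (283.8), while in replicate 2 it stayed above both. With fixed lengths 20 of the 28 pairs without H1f0 exceeded the bound. Of these pairs, 2 gained it, H3f3a over H3f3b and H2afx over H2afv (1.63 ± 0.38; SD, n = 2), and 1 lost it, H3f3b over H2afx, which went from 1.74 ± 1.16 to 0.67 ± 1.27 (SD, n = 2). The mean turned for 3 pairs, H2afz over H3f3a, H2afv over Cenpa and H2afv over H2afj, the last from 0.76 to -0.27.

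**Figure D3:**
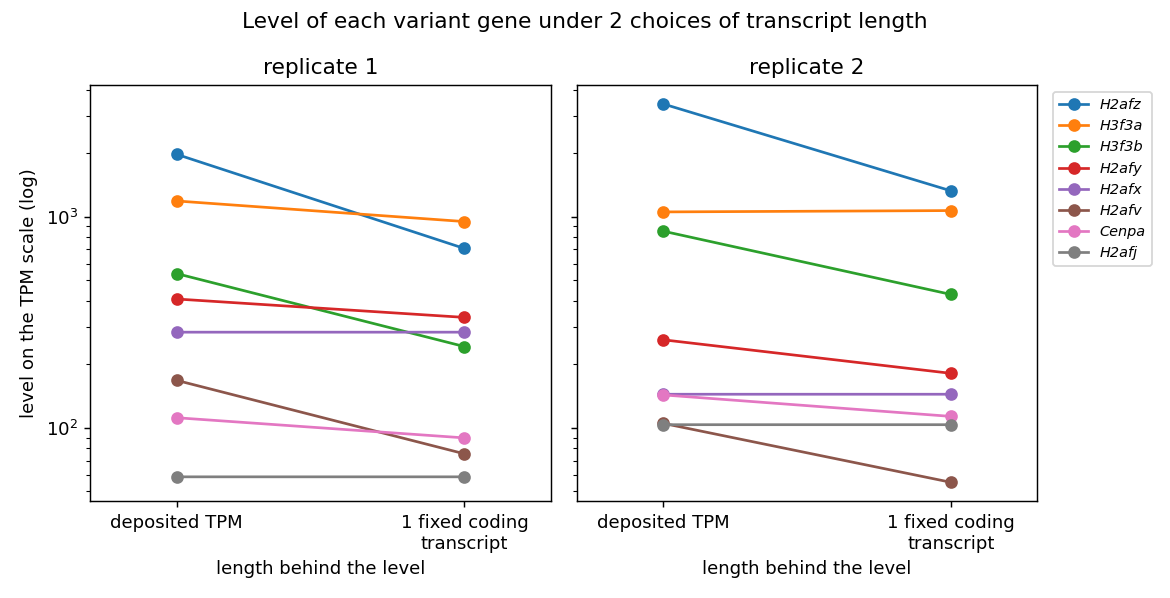
Level of the 8 expressed variant genes on the TPM scale (log axis), as deposited and with 1 fixed coding transcript per gene, in replicate 1 and replicate 2. The lines of H2afz and H3f3a cross in replicate 1, from 1973 and 1187 TPM to 706.8 and 948.0, and do not cross in replicate 2. Counts of Gm8203 are not part of the H2afz levels.

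The libraries were then compared on counts scaled by TMM, with 0.5 added, as log2 of replicate 2 over replicate 1. Of the 12414 genes that had 50 counts or more over both libraries, 16.3% were at least 2-fold higher in replicate 2 and 13.2% at least 2-fold higher in replicate 1. None of the 8 members tested was 2-fold apart either way. No test is possible with 1 library against 1, and H1f0 had too few counts to enter. With 2027 genes higher in replicate 2 and 1636 higher in replicate 1, 55.3% of the calls were higher in replicate 2; that share was 68.3% with DESeq2 size factors and 43.6% with a GC trend subtracted.

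H2afz was closest to the 2-fold line on the upper side, at 0.93, from 17071 and 61045 counts. H3f3b and H2afj were both at 0.86. These 3 passed 2-fold with DESeq2 size factors, at 1.18, 1.10 and 1.10, a scaling that raised the median of all tested genes from 0.021 to 0.27. TMM factors taken over all genes gave 1.19, 1.11 and 1.11. Cenpa was at 0.37 and H3f3a at 0.18. On the lower side, H2afv was at -0.41, H2afy at -0.84 and H2afx at -0.95, the last from 8944 and 8701 counts.

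GC content moved with the library ratio over all genes: the median ratio was 0.74 over the 3092 genes of lowest GC (up to 45.5%) and -0.30 over the 3091 of highest GC (from 54.6%). The members ran from 47.1% GC for H3f3b to 62.3% for H2afx. With the trend subtracted, H2afx was at -0.73, H3f3b at 0.67, H2afz at 1.08 and H2afj at 1.13. The sign of the ratio was kept by H2afz, H3f3b, H2afj, Cenpa, H2afv, H2afy and H2afx in all 6 alternatives; H3f3a went to just below 0, at -0.0049, on TPM rescaled to protein-coding genes.

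**Figure D4:**
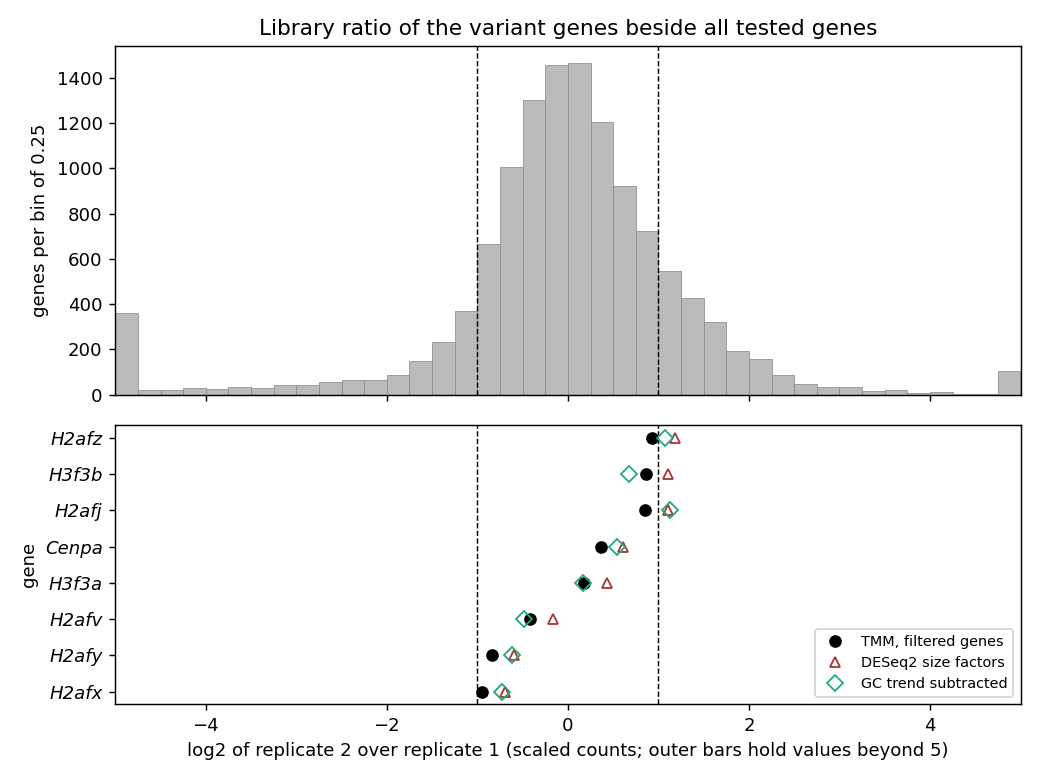
Top, number of tested genes in each bin of the log2 ratio of replicate 2 over replicate 1; bottom, the 8 tested variant genes under TMM (filled circles), DESeq2 size factors (triangles) and with a GC trend subtracted (diamonds). Dashed lines mark 2-fold. All filled circles lie inside the lines, from -0.95 for H2afx to 0.93 for H2afz, and triangles of H2afz, H3f3b and H2afj lie outside.

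Within the H3 class, the variant genes H3f3a, H3f3b and Cenpa summed to 1836 and 2051 TPM, against 63.97 and 160.1 TPM for 12 replication-dependent H3 genes. They made 96.6% and 92.8% of H3 class TPM. The 5 H2A variant genes summed to 2891 and 4035 TPM and made 30.6% and 42.9% of their class. Hist1h2ao alone had 4853 and 2039 TPM. Of the variant sum, H2afz was 1973 and 3421 TPM, against 706.8 and 1326 with 1 fixed coding transcript. A lower H2afz level lowers the H2A share, and the share on that scale was not computed. H1f0 made 0.206% and 0.140% of the H1 class. Poly(A) selection disfavours RNAs without a tail, so these are shares of what was read and not of the cells' histone RNA.

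Other variant genes were close to absent. Of 13 in the list, 2 reached 1 TPM in both libraries, Hist1h2aa at 3.98 and 2.93 TPM and Hist3h2a at 1.94 and 2.39 TPM. By symbol, Hist1h2aa, Hist3h2a, Hist1h2ba and Hist3h2ba were also counted in the replication-dependent set used above. H2afy2, the gene of macroH2A2, was at 0.21 and 0.01 TPM, from 10.3 and 1.24 counts. H1fx, a replication-independent linker histone, had no count, which allows up to 0.109 TPM in replicate 1 and 0.0569 TPM in replicate 2 at 3 counts. H1foo, H2afb1, H2afb3, Hils1 and Hist3h2ba also had no count in either library. Hist1h2ba, H2afb2, H1fnt and H2al2a, the rest of the list, were at 0.42 TPM or less in each library.

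The factors that handle the variants were widely expressed. Of 81 genes in the other 7 lists, 75 reached 1 TPM in each library, beside 42.5% of all protein-coding genes. All 11 genes of H3.3 deposition were, with a median of 44.2 TPM, beside 0.365 TPM over all protein-coding genes. Hira, the namesake of the complex that loads H3.3 in active genes, was at 166.3 and 77.5 TPM. Daxx, which loads H3.3 at telomeres and repeats, was at 109.4 and 69.2 TPM, and its partner Atrx at 26.0 and 57.8 TPM. Dek at 114.9 and 205.1 TPM and Asf1b at 174.3 and 100.7 TPM had the highest means of the list, although Hira was above Dek in replicate 1.

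All 10 genes of CENP-A deposition reached 1 TPM in each library, with a median of 33.3 TPM. Hjurp, the dedicated CENP-A chaperone, was at 168.2 and 90.6 TPM. Rbbp7 and Rbbp4, histone-binding proteins of several complexes, were at 104.0 and 322.9 TPM and at 117.3 and 156.3 TPM.

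The 16 genes of H2A.Z deposition and removal did so as well, and their median was 78.1 TPM. Ep400 and Srcap, the motors of the complexes that insert H2A.Z, were at 233.7 and 99.5 TPM and at 132.1 and 52.9 TPM. Vps72, which binds H2A.Z in those complexes, was at 137.1 and 80.7 TPM. Anp32e, which takes H2A.Z out, was at 140.7 and 143.3 TPM. Ruvbl2, an ATPase of both complexes, was the highest at 526.7 and 274.5 TPM, followed by Morf4l1 at 283.8 and 208.7 TPM.

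Of 17 genes that modify or read H2A.X, 14 were expressed, with a list median of 21.2 TPM. Atm, a kinase that phosphorylates H2A.X at breaks, was at 9.37 and 13.33 TPM. Mdc1, which binds the phosphorylated form, was at 58.8 and 17.5 TPM. Ppp4c, part of a phosphatase that removes the mark, was at 163.7 and 135.7 TPM. Baz1b, a kinase of the H2A.X tail tyrosine, was at 107.4 and 82.1 TPM, and the tyrosine phosphatase Eya3 at 61.1 and 21.4 TPM. Its relatives Eya1, Eya2 and Eya4 were under 1 TPM in both libraries.

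The macroH2A and ADP-ribose list had 4 of 6 genes expressed. Parp1, the main source of ADP-ribose chains, was at 157.9 and 157.5 TPM, Parp2 at 46.0 and 43.0 TPM and Parg, which degrades the chains, at 33.9 and 21.8 TPM. Macrod2 was at 0.60 and 0.01 TPM. General chaperones were the highest list, with all 11 expressed and a median of 97.6 TPM, led by Npm1 at 790.4 and 1208 TPM, Set at 457.2 and 526.8 TPM and Ssrp1 at 339.5 and 329.0 TPM. Of the 10 genes that process stem-loop histone RNA, 9 were expressed. Slbp, which binds the stem-loop shown for H2afx, was at 104.8 and 113.2 TPM, Sympk at 371.6 and 169.4 TPM and Cpsf3 at 68.2 and 70.5 TPM.

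Of the 79 list genes with a library ratio, 14 (17.7%) were at least 2-fold higher in replicate 2, near the 16.3% of all tested genes. At least 2-fold higher in replicate 1 were 3 (3.80%), beside 13.2% of all tested genes.

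**Figure D5:**
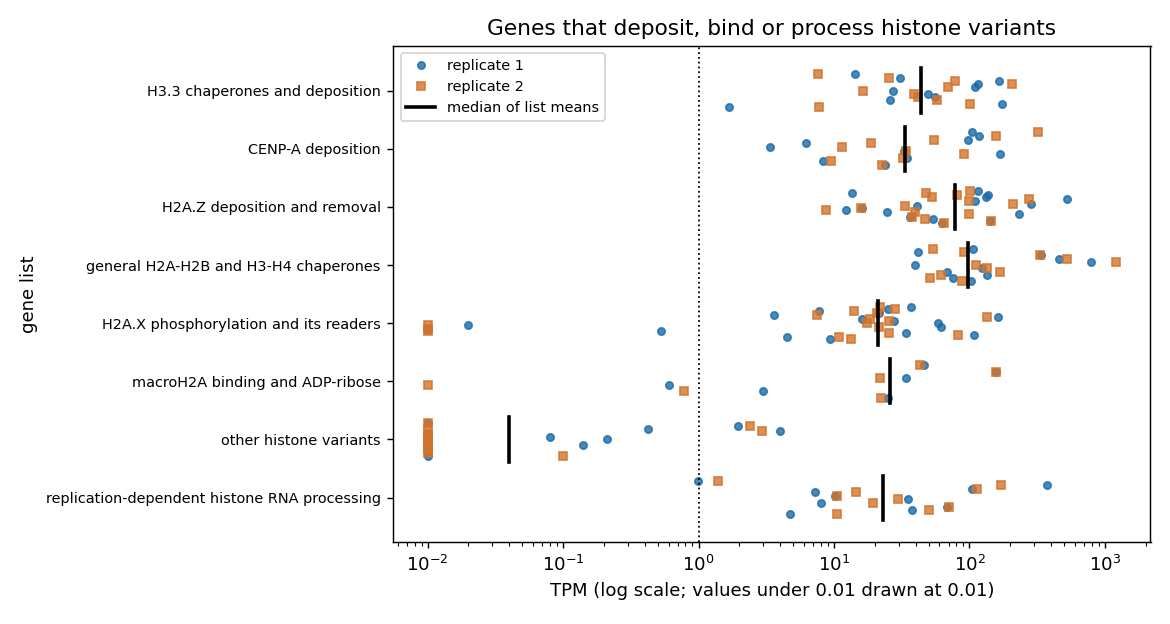
TPM (log axis) of the genes of 8 lists in replicate 1 (circles) and replicate 2 (squares), with the list median of mean TPM as a bar; values under 0.01 TPM are drawn at 0.01. Medians of 7 lists lie between 21.2 and 97.6 TPM, and that of the other histone variants at 0.04 TPM.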

How the data were processed

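Poly(A) RNA of 2 libraries of 1 G1E group was analysed. Expected counts, the estimated reads per gene or transcript, were deposited by the authors without scaling. TPM, and a posterior mean TPM beside it, were deposited with each count divided by effective length, per the file headers. The deposited percent column gives each transcript's share of its gene's TPM. The deposited notes name mm10, annotation M4 and transcriptome alignments; aligner, quantifier and strand use are not stated there or in the labels, so overlapping antisense genes may not be told apart.

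Members and lists were chosen with earlier results of these data known. Symbols and transcript sequences came from GENCODE M21 by identifier; all 38 member transcripts matched, and 5 differ in length from the deposited table. Entries naming no gene (0.0363% and 0.00942% of counts) were left out. Counts were rounded, and TMM factors came from edgeR 4.0.16 over the 12457 genes passing its expression filter, 0.980 and 1.02. Size factors of DESeq2 1.42.0, TMM over all genes, total counts, a GC lowess of span 0.3 and near-identical copies (at least 50% of their own 36-mers in the member) were alternatives. Python 3.11.15, pandas 2.3.3 and statsmodels 0.14.6 were used, and the library ratio was tested on simulated counts. Text names all 9 members, fixed pairs and neighbours, copies with 10 counts, transcripts at 10% or more, and of each list the 3 highest genes, those under 1 TPM in both libraries and a few fixed regulators. H2afy-202 (macroH2A1.1) was named after its values were seen.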

Additional observations from a re-analysis of the deposited data

How the results depend on the processing

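With 1 fixed coding transcript, an alternative chosen after seeing the data, H2afz over H3f3a turned from 1.22 to -0.056 on the log2 scale. H2afv over Cenpa turned from 0.07 to -0.64. Neither value of H2afz over H3f3a includes the Gm8203 counts. Leaving out a replicate, H2afv over Cenpa ranged from -0.44 to 0.58. The number of members at least 2-fold apart between libraries was 0 under TMM, total counts, protein-coding TPM and added copies, 3 with DESeq2 size factors, 3 with TMM over all genes and 2 with the GC trend subtracted. Calls over all genes went from 3663 to 18329 without a filter on low counts, which admits genes with a few reads in 1 library, and ranged from 2829 to 4035 otherwise. The share of H1 class went from 0.173% to 0.415% on expected counts, and that of H2A from 36.7% to 45.9%. H2A without Hist1h2ao was 58.8%, also chosen after seeing the data. Fixed transcript lengths, which lower H2afz, were not applied to the H2A share. On expected counts the mean share of coding transcripts went from 9.3% to 19.1% for H3f3b. It went from 59.7% to 78.3% for H2afy and from 19.3% to 18.7% for Cenpa. Pairs beyond the bound ranged from 23 to 29 of 36 over the alternatives, with 23 without either replicate, where the bound for 1 library is 1.74. Pathway genes at the threshold ranged from 70 to 79 against 77. No paired analysis was possible because there is 1 group. Depth limits H1f0, at 2 and 5 counts, and the genes at 0.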

Other observations

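H3f3a overlaps Gm17275, a noncoding gene on the opposite strand with 194 and 546 counts, and H3f3aos, an antisense gene with 32.3 and 40.1 counts. Against the 15257 and 32465 counts of H3f3a these are small. H2afy3, a processed pseudogene related in name to H2afy, had 5.95 and 18.1 counts. The annotated length of the H1f0 transcript is 2287 nt in the deposited table and 2055 nt in the later annotation release, and that of the Cenpa transcript with the longest coding sequence is 1354 and 1466 nt.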
